A study of Mus musculus with 63 samples.

Results

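Wild-type (WT) mouse embryonic fibroblasts (mEFs) from embryos of 2 crosses were compared. The members were chosen by their labels, as the 3 WT libraries that belong with the double mutant mEFs and the 3 that belong with the Chd2 m/m mEFs, and they make up 6 of the 63 samples of the series. All 24990 rows of the deposited tables were considered, and 14020 of them held enough counts to be tested. The study from which they come deleted Chaserr, a long noncoding RNA (lncRNA) made just upstream of the chromatin remodeller gene Chd2, and measured expression in mutants and in WT cells of the same set. Every mutant of that study was read against its own WT cells, so the question here is how far WT cultures of separate sets differ from each other.

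The first group came from a cross of mice that carry both the Chaserr deletion and the m allele of Chd2 (Chaserr+/- Chd2+/m), and is called the Chaserr Chd2 cross. The second group came from a cross of mice with the m allele alone (Chd2+/m), and is called the Chd2 cross. The m allele is a frameshift made by a small deletion in an early coding exon of Chd2, and the Chaserr deletion was made by genome editing in mice that already carried it. The embryos of both groups are WT at both genes, were untreated, and were taken at E13.5. The founders were of a mixed background and were crossed back to C57BL/6 Ola HSD, so WT embryos of separate crosses may differ elsewhere in the genome. Libraries of the mutants of the same sets were used as a second look at the difference between the sets. These were 3 libraries labelled Chaserr-/ Chd2m/m (the double mutant, without Chaserr and with the m allele on both chromosomes) and 2 libraries of Chd2 m/m cells, which have Chaserr. The titles of the double mutant libraries name a Chd2+/m cross, whereas their description puts them in the same set as the WT libraries of the Chaserr Chd2 cross. The other 6 WT mEF libraries of the series, 3 made beside Chaserr+/- cells (the Het set) and 3 made beside Chaserr-/- cells (the KO set), served to place each level.

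mEFs are cultures grown from an embryo after the head and the liver are removed and the rest is taken apart with trypsin. They are made up mostly of fibroblasts, which lay down collagens and other matrix proteins, but other cells of the embryo come along. Plated fibroblasts respond to serum, stiffness and transforming growth factor beta (TGF-beta) by building actin bundles and turning on contractile genes, and they slow their division as p53 is activated by the stress of culture. In bulk RNA, fewer cells of a type and less RNA per cell cannot be told apart.

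The libraries of the crosses differed in technical measures. The total count was between 14185184 and 15821450 in the Chaserr Chd2 cross and between 15038261 and 16102716 in the Chd2 cross. The mean fragment length that the deposited effective lengths imply was 84.3 to 84.9 bases in the first and 127.7 to 135.8 bases in the second. It was 84.1 to 85 bases in the double mutant libraries, 124.7 and 125 bases in the Chd2 m/m libraries, and 109.5 to 135.6 bases in the 6 other WT libraries. The 50 highest rows took up 14.8% to 15.3% of all counts in the Chaserr Chd2 cross and 18.2% to 19.3% in the Chd2 cross. The total counts overlapped, but the fragment lengths and the shares of the highest rows separate the crosses completely, so the cross and the way its libraries were made and read cannot be told apart. The labels give no culture or litter, so p values measure the spread between these samples, which may be technical.

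WT cells of the crosses differed in most of the genes they expressed. Of 14020 rows, 7675 (54.7%) were called at an adjusted p under 0.05 in the quasi-likelihood test of edgeR, adjusted after Benjamini and Hochberg. Of these, 3887 (27.7%) were higher in the Chaserr Chd2 cross and 3788 (27%) were lower. At least 2-fold changes were found in 2046 rows (14.6%), of which 1211 (8.64%) were higher and 835 (5.96%) were lower. In 8836 rows (63%) the 3 libraries of one cross did not overlap those of the other. The Spearman correlation over all tested rows was 0.986 to 0.991 between libraries of the Chaserr Chd2 cross, 0.994 to 0.995 between those of the Chd2 cross, and 0.945 to 0.958 between a library of one and a library of the other.

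**Figure D1:**
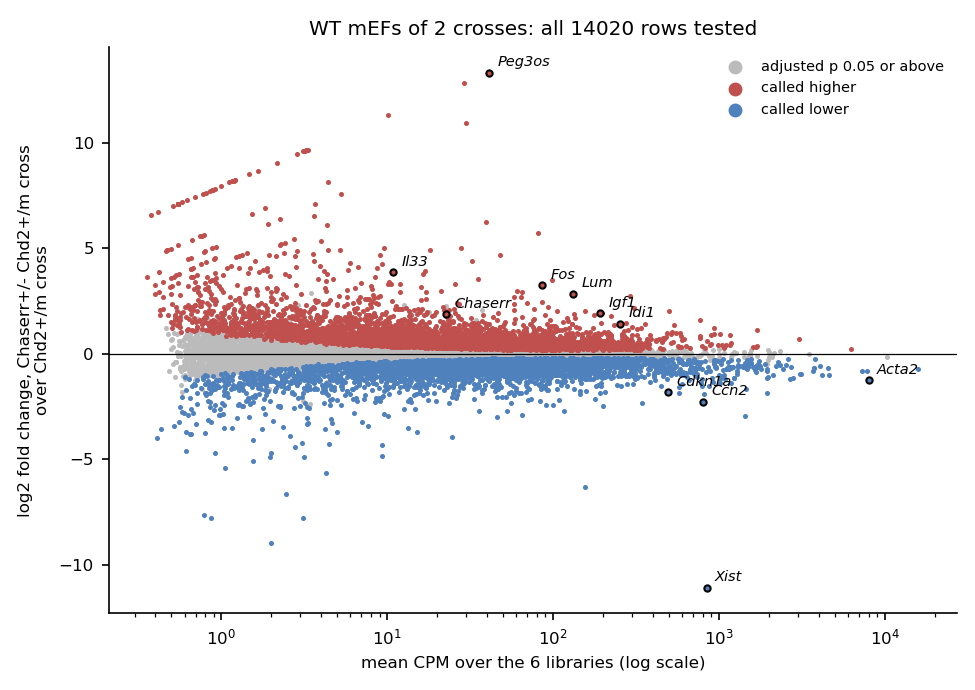
Log2 fold change (y axis, positive when higher in the Chaserr Chd2 cross) against mean CPM over the 6 libraries (x axis, log scale) for the 14020 rows tested, with called rows in red or blue and others in grey. The called rows, 3887 higher and 3788 lower, reach over the whole range of levels. Rows at 0 in one cross, such as Peg3os, are drawn at a fitted value that is no measured size.

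The difference followed the base composition of the genes. In 5 equal classes of rows by GC content, the median log2 fold change was 0.41 in the class with the lowest GC (30.3% to 45.3%), then 0.16, -0.05 and -0.21, and -0.35 in the class with the highest (56.3% to 72.5%). Each library of the Chaserr Chd2 cross had a negative correlation between a gene's level relative to the 12 WT libraries and its GC content, from -0.72 to -0.54 (Spearman, 13252 rows), compared with -0.19 to -0.12 in the Chd2 cross, 0.2 to 0.26 in the Het set and 0.48 to 0.65 in the KO set. After each library was corrected for its trend with GC content and gene length, 7068 rows (50.4%) were called. Of the 7675 rows called without the correction, 5504 were also called in the same direction with it, and 64 were called in the opposite direction. Of the 2046 rows changed at least 2-fold, 1944 were also called in the same direction with the correction, and 1511 of them were still changed at least 2-fold. Medians of most gene groups other than cell types are therefore given without and with the correction.

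**Figure D2:**
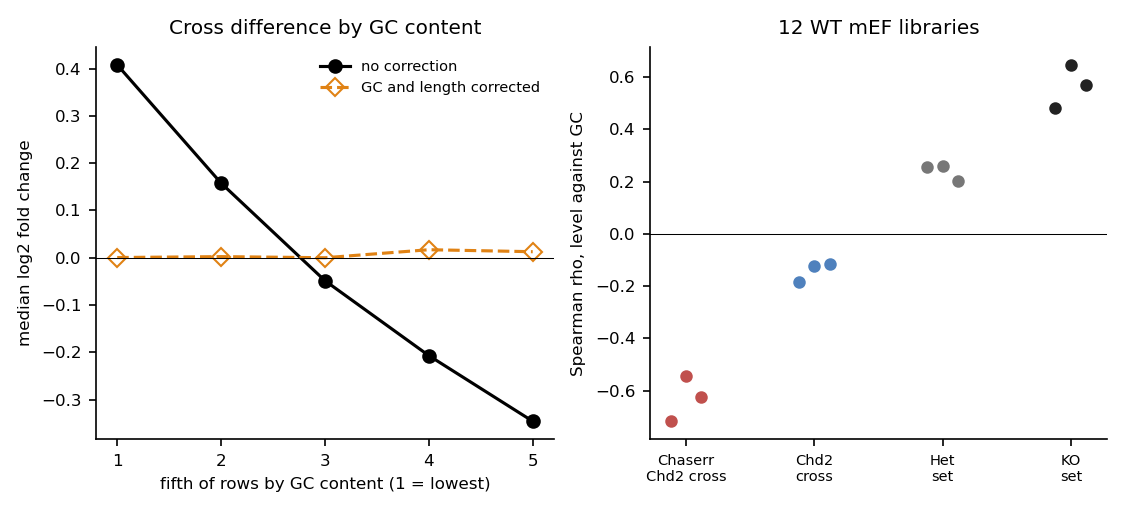
Left, median log2 fold change between the crosses (y axis) in 5 equal classes of rows by GC content (x axis), without and with the GC and length correction. Right, the Spearman correlation of a gene's level with its GC content in each of the 12 WT mEF libraries by set, which is lowest in the 3 libraries of the Chaserr Chd2 cross (-0.72 to -0.54).

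Contractile and TGF-beta-responsive genes were lower in the Chaserr Chd2 cross. Of its 24 tested members, 18 were lower, 3 were higher (Tgfbi, Postn and Itga8) and 3 were not called, and the median log2 fold change was -0.99 (-0.73 corrected), compared with 0.01 over all rows. Ccn2, which encodes a matrix-associated growth factor induced by TGF-beta and by YAP, had 288, 289 and 261 CPM in the Chaserr Chd2 cross and 1179, 1411 and 1408 CPM in the Chd2 cross. No library of one cross came near the other, with means of 279 ± 15.8 and 1333 ± 133 CPM (SD, n = 3), a 4.77-fold difference (log2 -2.25 ± 0.1 SE, adjusted p = 2.293e-07 by edgeR). It stood at a median of 1380 CPM in the Het set and 397 CPM in the KO set. Ankrd1, another target of YAP, fell from 203 ± 46.3 to 31 ± 6.29 CPM (SD, n = 3). Acta2 encodes the smooth muscle actin that marks myofibroblasts and was among the most abundant transcripts of both crosses. It had 5320, 4090 and 4872 CPM in the Chaserr Chd2 cross and 9587, 12210 and 11880 CPM in the Chd2 cross (log2 -1.24). Tagln, the smooth muscle actin-binding protein transgelin, was 3.66-fold lower (840 ± 42.4 compared with 3073 ± 412 CPM). The cytoplasmic actin genes fell less, Actb by 0.79 and Actg1 by 0.81 on the log2 scale.

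The genes of this group that rose encode matrix proteins or their receptor. The promoter windows that RefSeq gives for 17 of the tested members (250 bases before to 50 bases after the start site) held a CArG box, the site that serum response factor binds, in 3 cases (17.6%), compared with 1.57% of 10844 tested genes with a window. The match was searched on both strands and is a description of the letters only.

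**Figure D3:**
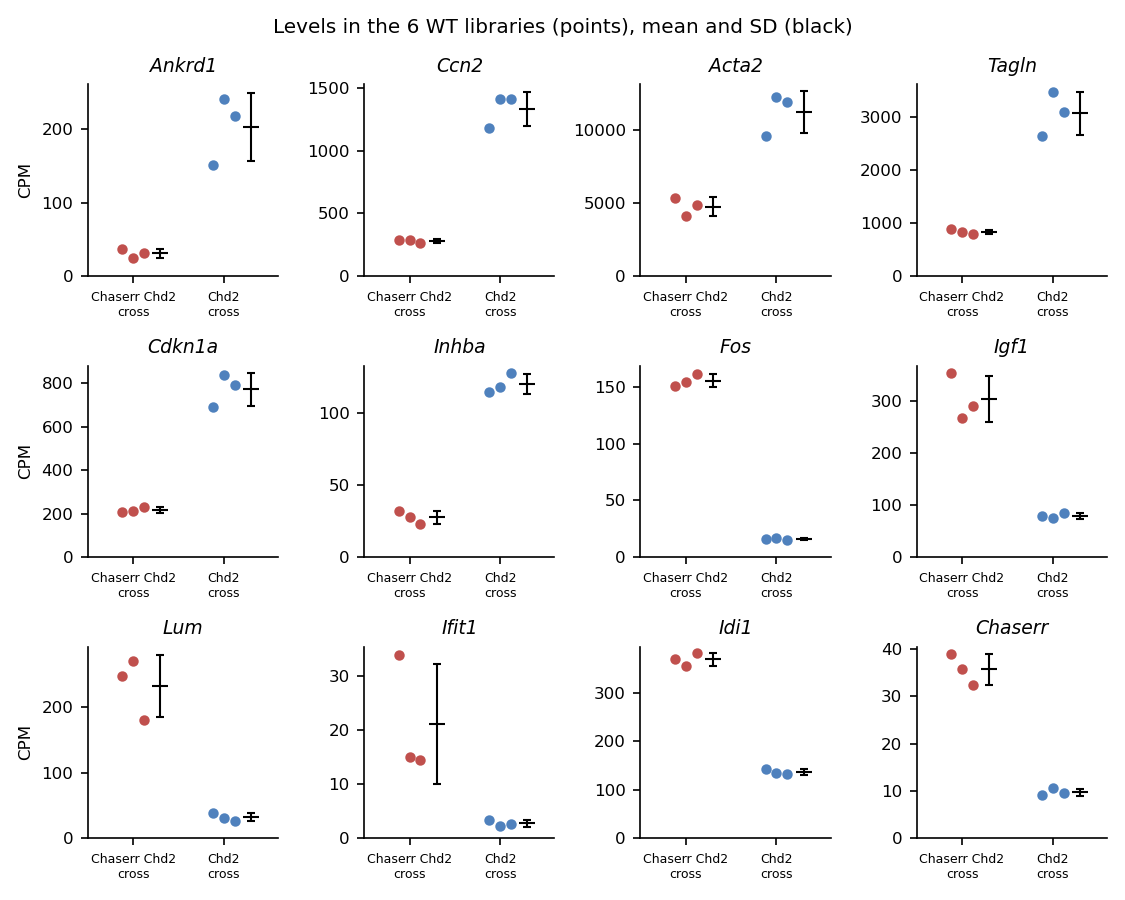
CPM (y axis, from 0) of 12 genes in the 3 WT libraries of each cross (points), with the mean and SD in black. In each of the 12 genes the libraries of one cross lie wholly above or below those of the other, as in 63% of all tested rows. Ccn2, for example, is at 261 to 289 CPM in the Chaserr Chd2 cross and 1179 to 1411 CPM in the Chd2 cross.

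Matrix genes moved in both directions. Of 43 tested, 19 were higher, 17 were lower and 7 were not called (median 0.08, 0.33 corrected). Lum, the collagen-binding proteoglycan lumican, had 246, 270 and 179 CPM in the Chaserr Chd2 cross and 38.4, 31.1 and 26.5 CPM in the Chd2 cross (log2 2.86 ± 0.17 SE, adjusted p = 1.432e-06 by edgeR). The genes of insulin-like growth factor binding proteins rose as well, Igfbp5 by 4.15-fold, Igfbp3 by 4.03-fold and Igfbp4 by 2.79-fold. Among genes of the other direction, fibronectin (Fn1) had a log2 fold change of -0.68 and the basement membrane collagen Col4a1 one of -0.72, both chosen after their values were seen. Of 21 matrix proteases, 6 were higher and 7 were lower (median -0.13, -0.16 corrected), compared with 27.7% higher and 27% lower among all rows. Mmp13, a collagenase of bone and cartilage, had 91.9, 118 and 126 CPM in the Chaserr Chd2 cross and 16.8, 24.7 and 9.84 CPM in the Chd2 cross, and Timp2, an inhibitor of such proteases, was lower (log2 -1.17).

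The cells of both crosses expressed fibroblast genes. All 12 fibroblast identity genes were detected at a mean of at least 1 FPKM, and their summed level was 3639 to 4465 FPKM in the Chaserr Chd2 cross and 4124 to 4373 FPKM in the Chd2 cross. Within the list, 7 genes were higher in the Chaserr Chd2 cross and 3 were lower. Dcn, which encodes the proteoglycan decorin, was 3.43-fold higher, and Col1a2, a chain of type I collagen, rose from 1061 ± 68.1 to 2345 ± 338 CPM (SD, n = 3). Twist1, a mesenchymal transcription factor, was at 136 to 167 CPM, compared with 65.7 to 71.5 CPM in the Chd2 cross. It was higher than in all 9 other WT libraries, a range that the Chaserr Chd2 cross left in 31.8% of all tested rows. S100a4, a calcium-binding protein used as a fibroblast marker, fell by 1.86 on the log2 scale.

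Interferon-stimulated genes moved almost all in one direction. Of 35 tested, 32 were higher in the Chaserr Chd2 cross, none was lower and 3 were not called, with a median log2 fold change of 1.51 (1.64 corrected). Ifit1, an antiviral protein that binds foreign RNA, had 33.9, 15.1 and 14.4 CPM in the Chaserr Chd2 cross and 3.37, 2.27 and 2.59 CPM in the Chd2 cross (log2 2.94 ± 0.35 SE, adjusted p = 7.484e-05 by edgeR). The GTPase gene Iigp1 had a mean of 10.1 ± 3.68 and 0.324 ± 0.219 CPM (SD, n = 3), and Ifi44 a mean of 19.1 ± 10.9 and 1.94 ± 0.25 CPM. Replicate 1 of the Chaserr Chd2 cross was the highest for each of these 3 genes. The KO set was high as well, with Ifit1 at a median of 26.3 CPM and Ifi44 at 23.8 CPM, and the Het set was low (2.11 and 3.33 CPM).

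Promoters of these genes carry the letters that the interferon-activated factors read. The core letters, GAAA and again GAAA with 2 bases of any kind between them, were searched on both strands of the RefSeq windows (GRCm38.p6) and were found in 15 of 25 interferon-stimulated genes (60%), compared with 394 of 10844 tested genes (3.63%). Windows of 30 bases are shown for 5 members with a match and a low p, chosen after their values were seen. These members need not have the 5 lowest p values, since not every match was considered for display. The windows show the shared core, 5′ to 3′ on the strand of the match, with the match in capitals. They lie at chr19:34640794-34640823 (minus strand, Ifit1), chr3:142530273-142530302 (minus strand, Gbp7), chr3:142559995-142560024 (minus strand, Gbp3), chr10:128270266-128270295 (minus strand, Stat2) and chr19:34583397-34583426 (minus strand, Ifit3).
Ifit1: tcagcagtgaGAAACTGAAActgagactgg
Gbp7: atggagaactGAAACTGAAActgcacacac
Gbp3: agggatctggGAAATAGAAActgaaactgt
Stat2: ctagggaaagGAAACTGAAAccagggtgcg
Ifit3: gaggaaagtaGAAACTGAAAcagacttaaa

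Among those 5 genes, the log2 fold change was 2.94 for Ifit1, 2.41 for Gbp7, 2.84 for Gbp3, 1.18 for Stat2 and 1.74 for Ifit3. Antigen presentation genes, which interferon also induces, were called in 3 of 12 cases, all higher, a share of 25% compared with 54.7% of all rows (median 0.19, 0.5 corrected). With the correction 5 were higher and 1 was lower, without replicate 2 of the Chd2 cross 5 were higher, and the median of the list in mutants was -0.365. H2-K1, a class I heavy chain, had 11.9 CPM in the lowest and 32.1 CPM in the highest library of the Chaserr Chd2 cross (replicate 3), compared with 7.11 to 8.93 CPM in the Chd2 cross. Rows of the major histocompatibility complex share reads with near-identical copies, and their counts are uncertain.

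Inflammatory genes did not move together, with 7 of 23 higher and 8 lower (median 0.18, 0.04 corrected). Among all rows 27.7% were higher and 27% were lower. Il33, the alarmin of stromal cells, had 24, 19.7 and 17.6 CPM in the Chaserr Chd2 cross and 1.26 to 1.58 CPM in the Chd2 cross (log2 3.89 ± 0.19 SE). Ptgs2, the inducible cyclooxygenase, went the other way, with 134, 112 and 94.4 CPM and 523, 626 and 577 CPM (log2 -2.34 ± 0.13 SE). Lif, a cytokine of the IL-6 family, and Csf1, the growth factor of macrophages, were lower by 1.29 and 1.41 on the log2 scale.

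Immediate early genes and genes of the ERK pathway were split. Of 30 tested, 6 were higher (Fosb, Fos, Zfp36, Egr1, Ier2 and Jund) and 17 were lower, with a median of -0.76 (-0.71 corrected). Fos, a subunit of the AP-1 transcription factor, had 151, 154 and 161 CPM in the Chaserr Chd2 cross and 16, 16.9 and 15.2 CPM in the Chd2 cross, a 9.69-fold difference (log2 3.28 ± 0.08 SE, adjusted p = 1.951e-08 by edgeR). Fosb rose from 5.6 ± 1.11 to 65.2 ± 2.1 CPM (SD, n = 3). The groups lay far apart in both genes, and the KO set was again high (203.5 and 84.6 CPM) and the Het set low (9.74 and 4.29 CPM).

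Most other genes of the list were lower. Hbegf, a ligand of the EGF receptor, had 30.2, 29.5 and 26.2 CPM in the Chaserr Chd2 cross and 138, 167 and 152 CPM in the Chd2 cross. Spry4, a feedback inhibitor of receptor tyrosine kinases, had 23.1, 22.5 and 22.4 CPM and 68.8, 71.6 and 71.6 CPM. Its libraries of one cross did not overlap those of the other, as in 63% of all rows. Fosl1, an AP-1 subunit that sustained ERK signalling induces, had a log2 fold change of -3 and was chosen after its value was seen.

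Targets of p53 were lower in the Chaserr Chd2 cross. Of 25 tested, 15 were lower, only Sesn1 was higher and 9 were not called (median -0.48, -0.65 corrected). Cdkn1a, the p21 inhibitor of cyclin-dependent kinases, had 206, 214 and 233 CPM in the Chaserr Chd2 cross and 688, 838 and 790 CPM in the Chd2 cross, a 3.54-fold difference (adjusted p = 7.115e-07 by edgeR). Phlda3, an inhibitor of Akt, Bax, which permeabilizes mitochondria, and Aen, a nuclease, were lower by 1.67, 0.97 and 1.1 on the log2 scale. Cdkn2a and Cdkn2b, inhibitors of the cell cycle that mark senescence and were chosen after their values were seen, were not called (log2 -0.08 and -0.13).

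Cell cycle genes were higher in the same libraries, with 22 of 38 higher, 2 lower (E2f1 and Rrm2) and 14 not called (median 0.36, 0.38 corrected). Mki67, the proliferation antigen, had 781, 744 and 662 CPM in the Chaserr Chd2 cross and 411, 323 and 368 CPM in the Chd2 cross. The mitotic kinesin Kif11 was 2.53-fold higher and the spindle checkpoint kinase Bub1 2.37-fold higher. Tyms, which makes thymidylate for DNA synthesis, rose from 67.4 ± 3 to 133 ± 6.41 CPM (SD, n = 3). The corrected log2 fold change was smaller for Kif11 (0.89) and Bub1 (0.73).

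Cholesterol synthesis genes rose nearly as a whole pathway. Of 25 tested, 20 were higher, 1 was lower and 4 were not called (median 0.68, 0.6 corrected). Idi1, an isomerase of the isoprenoid steps, had 370, 356 and 383 CPM in the Chaserr Chd2 cross and 144, 134 and 133 CPM in the Chd2 cross (log2 1.43 ± 0.07 SE, adjusted p = 7.115e-07 by edgeR). Hmgcs1, the synthase before the rate-limiting step, had 123, 134 and 168 CPM and 63.7, 65.5 and 71 CPM. Dhcr7, which makes cholesterol in the last step, and Acat2, which makes acetoacetyl-CoA, were both 1.82-fold higher. The other sets did not take one side. Relative to the mean of all WT libraries, the mean log2 level of the list was highest in the Het set (0.51 to 0.65). It was 0.11 to 0.36 in the Chaserr Chd2 cross, -0.42 to -0.41 in the Chd2 cross and -0.55 to -0.09 in the KO set. In 3 of the 25 genes the Chaserr Chd2 cross lay outside the range of all other WT libraries, compared with 31.8% of all tested rows. Idi1 differed from the list, at 167 CPM in the Het set, below the Chaserr Chd2 cross, and 60.8 CPM in the KO set. Dhcr7 was at 89.1 CPM in the Het set and 61.9 CPM in the KO set.

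**Figure D4:**
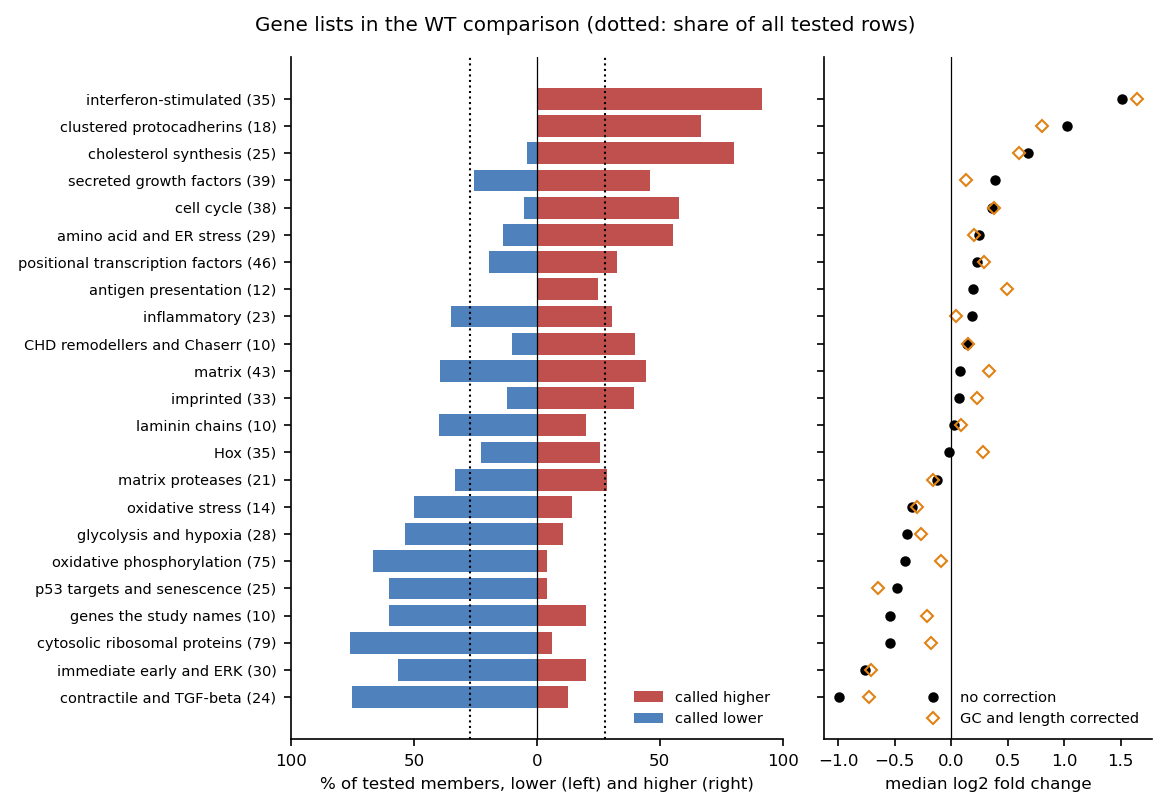
Left, the percent of tested members of each gene list (number in brackets) called higher or lower in the Chaserr Chd2 cross, with dotted lines at the share of all rows (27.7% higher and 27% lower). Right, the median log2 fold change of each list without and with the GC and length correction. Lists of cell types and lists with under 10 tested members are not drawn, and of those drawn the uncorrected median was highest for interferon-stimulated genes (1.51) and lowest for contractile and TGF-beta genes (-0.99).

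Genes of the ribosome and of the respiratory chain were lower, but much of this went with the correction. Of 79 cytosolic ribosomal protein genes, 60 were lower and 5 were higher (median -0.54), compared with 37 and 11 after correction (median -0.18). Rplp2, which encodes a protein of the ribosomal stalk, had 250, 309 and 308 CPM in the Chaserr Chd2 cross and 841, 941 and 799 CPM in the Chd2 cross, and its log2 fold change was -1.57 without and -0.9 with the correction. Rpl22l1, a paralogue of Rpl22, was the exception, 4.09-fold higher at 140 to 211 CPM compared with 33.4 to 47.8 CPM. Of 75 genes of oxidative phosphorylation, 50 were lower and 3 higher (median -0.41), and 26 and 12 after correction (median -0.1). Uqcr11, a small subunit of complex III, was 2.97-fold lower. Both lists consist of short transcripts, and ribosomal protein genes have many processed pseudogenes that share their reads, so these counts are uncertain where fragment lengths differ.

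Other metabolic lists moved less uniformly. Of 28 genes of glycolysis and hypoxia, 15 were lower and 3 higher (median -0.39, -0.27 corrected), among them Adm, a vasodilator peptide induced by hypoxia, at 12.2 ± 2.08 and 54.2 ± 4.08 CPM (SD, n = 3), and the glycolytic kinase Pgk1 (log2 -0.7). Genes that answer amino acid shortage and stress of the endoplasmic reticulum were higher in 16 of 29 cases and lower in 4 (median 0.24, 0.2 corrected), with Aldh1l2, a mitochondrial folate enzyme, 3.31-fold higher and Asns, asparagine synthetase, 1.83-fold higher. Of 14 genes of oxidative stress, 7 were lower and 2 higher (median -0.35, -0.3 corrected), the cystine transporter Slc7a11 rising by 1.4 and the quinone reductase Nqo1 falling by 1.1 on the log2 scale.

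Secreted growth factors changed in both directions, with 18 of 39 higher and 10 lower (median 0.39, 0.13 corrected). Igf1, insulin-like growth factor 1, had 354, 268 and 290 CPM in the Chaserr Chd2 cross and 79.7, 74.6 and 85.1 CPM in the Chd2 cross (log2 1.93 ± 0.11 SE). Sfrp1, a secreted Wnt antagonist, was 3.62-fold higher, with all libraries of the Chaserr Chd2 cross above the other 9 WT libraries. That cross lay outside the range of the others, above or below, in 31.8% of all tested rows. Inhba, which encodes the subunit of activin A, had 31.7, 27.8 and 23.2 CPM and 114, 117 and 127 CPM, and Bdnf, a neurotrophin, fell from 79.2 ± 5.83 to 19.5 ± 2.72 CPM (SD, n = 3). The libraries of the crosses did not overlap in any of these 4 genes, which was also the case in 63% of all rows.

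Genes that keep a record of position in the embryo were called about as often as all rows. Of 35 Hox genes tested, 9 were higher, 8 were lower and 18 were not called (median -0.02, 0.28 corrected), a share of 48.6% compared with 54.7% of all rows. With the correction the split was not even, with 14 higher and 3 lower. Hoxd13, the most distal gene of its cluster and expressed in the ends of limbs, had 44.7, 41.2 and 45.2 CPM in the Chaserr Chd2 cross and 25.4, 19.2 and 18.4 CPM in the Chd2 cross, and Hoxd12 was higher too (log2 1.68). The count of lower genes was 4 or 5 without replicate 2 or 3 of the Chd2 cross or replicate 1 or 2 of the Chaserr Chd2 cross. Hoxb4 and Hoxb9 were lower by 1.07 and 0.81 on the log2 scale. Of 46 other positional transcription factors, 15 were higher and 9 were lower, or 20 and 4 with the correction (median 0.23, 0.29 corrected), among them Foxc1 (log2 1.19) and Msx2 (log2 -1.53).

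Imprinted genes were called in 17 of 33 cases, 13 higher and 4 lower, a share of 51.5% that was close to the 54.7% of all rows (median 0.07, 0.23 corrected). Without replicate 3 of the Chaserr Chd2 cross, 8 were lower. Mest, a highly expressed paternal gene, had 1318, 1246 and 1349 CPM in the Chaserr Chd2 cross and 577, 574 and 525 CPM in the Chd2 cross. Kcnq1ot1, a long antisense RNA of the Kcnq1 domain, was 5.24-fold higher and the zinc finger gene Zim1 3.19-fold higher, and Blcap was 1.96-fold lower. Clustered protocadherins, adhesion proteins that are expressed at low levels in these cells (median 0.65 and 0.315 FPKM), were higher in 12 of 18 cases and lower in none (median 1.02, 0.8 corrected). All of them belong to the Pcdhb cluster, and at such low levels their counts are uncertain. Of 10 laminin genes, 2 were higher and 4 were lower (median 0.02, 0.08 corrected), a share of 60% compared with 54.7% of all rows. With the correction 3 were higher and 2 were lower, and 2 were lower without replicate 1 of the Chd2 cross. The chain Lama4 was 2.27-fold higher.

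Chaserr itself, listed as 1810026B05Rik, was higher in WT cells of the Chaserr Chd2 cross, although neither group carries its deletion. It had 39, 35.8 and 32.4 CPM in the Chaserr Chd2 cross and 9.07, 10.5 and 9.57 CPM in the Chd2 cross (log2 1.88 ± 0.11 SE, adjusted p = 1.643e-06 by edgeR, 2.06 with correction). The 3 high libraries stood above all 9 other WT libraries, with a median of 9.31 CPM in the Het set and 4.89 CPM in the KO set. In 31.8% of all tested rows the Chaserr Chd2 cross lay outside the range of those 9. Chd2 (mm9 chr7:80571577-80686632, minus strand) had 35.2, 35.1 and 36 CPM and 29.7, 34.8 and 31.4 CPM. Its 3 libraries of the Chaserr Chd2 cross were the higher ones, but it was not called (log2 0.15 ± 0.09 SE, adjusted p = 0.1964 by edgeR), and its sign turned with the correction (-0.07). In the list of 10 CHD remodellers and Chaserr (median 0.14, 0.15 corrected), 50% were called, compared with 54.7% of all rows. The 4 higher members were Chaserr, Chd9 (log2 0.61), Chd6 (0.45) and Chd7 (0.6), and Chd5 was lower (log2 -0.92). The call of Chd7 was lost without any 1 of 4 of the libraries. Of the 7 neighbours of Chd2 on the chromosome, 28.6% were called, below the 54.7% of all rows. Nr2f2, a nuclear receptor, was higher (log2 0.59) and Slco3a1, an anion transporter, was lower (log2 -0.91). Of 10 genes that the study names, 2 were higher and 6 were lower. Among them were Rassf1 at log2 -1.13, Eef2 at -0.75 and Ctsk at 0.98. The study names some of them, such as Ctsk, for a fall in Chaserr-/- mEFs, which are not among the libraries compared here.

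The rows with the largest changes were mostly not well-known genes. Of the 42 rows with no count in the 3 libraries of the Chd2 cross that were called higher, 20 were extra copies of a transcript listed beside another, and 22 were rows of 1 gene. Peg3os, an RNA opposite to the imprinted gene Peg3, had 93.8, 58.3 and 94.7 CPM in the Chaserr Chd2 cross and 0 in each library of the Chd2 cross, which is at least 1211-fold higher when 3 counts are taken as the floor over the group. Gm5088 was at least 297-fold higher (15.5, 21.6 and 23.9 CPM), and Tgm4, 9530082P21Rik, Gm12338 and Pdzk1 were at least 96.7, 93.1, 83 and 63.1-fold higher. These 6 rows had a median of 0 to 0.281 CPM in the Het and KO sets, so it was the Chaserr Chd2 cross that stood apart.

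Rows were also read by their overlap with a gene on the other strand. Of 81 tested rows with over 50% of their exon bases opposite to an exon of another gene (GENCODE vM1, mm9), 16% were called at least 2-fold higher and 9.88% at least 2-fold lower, compared with 8.25% and 6.11% of 10417 rows without such overlap. Of 2862 rows with a smaller overlap the shares were 7.06% and 5.14%, below those of rows without one, and these differences were not tested. Of 26 lncRNA rows whose symbol ends in os, for opposite strand, 6 were at least 2-fold higher and 3 at least 2-fold lower. The kit marks the strand, but whether the counting used it is not given in the sources used here, so such rows cannot be told from their partners. lncRNA rows were called higher in 36.1% and lower in 15.2% of 368 cases, compared with 27.3% and 27.5% of 13230 protein-coding rows.

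Among the largest falls was Rpl31-ps12, a pseudogene whose reads may be shared with its parent. It had 5.62, 4.8 and 1.3 CPM in the Chaserr Chd2 cross and 312, 301 and 309 CPM in the Chd2 cross, and was also high in the Het and KO sets (436 and 383 CPM). The pseudogene Ppp1r2-ps3 and the predicted genes Gm5523, Gm5069 and Gm7977 were low in the Chaserr Chd2 cross as well, with medians of 0.685 to 17.6 CPM in those sets. Among WT libraries, 3 genes of nerve or glial cells were at over 1 CPM in the Chd2 cross only. Cpne6, a calcium-dependent membrane-binding protein of synapses, had 4.57, 4.48 and 9.64 CPM in the Chd2 cross and 0 to 0.0591 CPM in the Chaserr Chd2 cross, and Ddn, a dendrite protein, and Gpr37l1, a receptor of astrocytes, had means of 8.39 ± 4.71 and 3.04 ± 1.2 CPM (SD, n = 3) in the Chd2 cross. In each of the 3 the Het and KO sets were at a median of 0.172 CPM or less. The marker list of neural and glial genes did not move as they did, with 13 of 17 members not called. Hormad1, a meiotic chromosome protein, was split, with 96.8, 47.2 and 35.4 CPM in the Chaserr Chd2 cross, 0 to 0.0703 CPM in the Chd2 cross, and a median of 21.2 CPM in the Het set.

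The most abundant called row (Entrez 100861531, for which no symbol was found) was at 10190 to 14400 CPM in the Chaserr Chd2 cross and 16920 to 22470 CPM in the Chd2 cross. The growth factor Igf2 was 1.16-fold higher, a call that was lost with the replicate block and without any 1 of 5 of the libraries, and Thbs1, thrombospondin 1, which activates TGF-beta, was 2.01-fold lower (3051 ± 182 and 6127 ± 180 CPM, SD, n = 3).

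Sex-linked transcripts were not matched between the crosses. Xist, the RNA that silences an X chromosome, had 0.837, 0.843 and 0.65 CPM in the Chaserr Chd2 cross and 2726, 2337 and 1.66 CPM in the Chd2 cross. The Y-linked genes went with it, Ddx3y at 57.1 to 65.3 CPM in the Chaserr Chd2 cross and 0, 0 and 42.1 CPM in the Chd2 cross, and Eif2s3y, Kdm5d and Uty behaved in the same way (32.3 to 40.4, 27.3 to 30 and 19.7 to 22.4 CPM, compared with 23.2, 21 and 12.6 CPM in replicate 3 of the Chd2 cross). Only Xist was called, which it was not against replicate 3 of the Chd2 cross alone, and no library was assigned a sex. Of 485 rows of chromosome X, 59.6% were called, compared with 54.7% of all rows, and their median log2 fold change was 0.25. Without the rows of chromosomes X and Y, 7400 rows were called. Against replicate 3 of the Chd2 cross alone, the only library of that cross with Y-linked transcripts, 3911 rows were called, 1891 higher and 2020 lower, and 999 and 780 of them changed at least 2-fold. Here 1 library stands for its group and its spread is assumed to be that of the other cross, and both alternatives were chosen after seeing the data.

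Genes in which laboratory strains of C57BL/6 differ were read as a check of the background. Mmrn1, known to be deleted in the Ola HSD substrain, was at 0 in 5 of the 6 libraries and at 0.414 CPM in replicate 3 of the Chaserr Chd2 cross. Glo1, duplicated in some strains, had 71.7, 66.2 and 155 CPM in the Chaserr Chd2 cross and 66.5 to 71.9 CPM in the Chd2 cross, so the same replicate stood apart. Mmrn1 and Glo1 were singled out after their values were seen. Nnt, which is disrupted in another substrain, was 1.73-fold higher in the Chaserr Chd2 cross. The share of other strains in each embryo was not tested.

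Marker lists of other cells were called in 16.7% to 83.3% of their tested members, compared with 54.7% of all rows. The share was above it for erythroid and pericyte (83.3% each), mesothelial (66.7%), endothelial (62.5%) and osteoblast genes (55.6%), and below it for epithelial (42.9%), macrophage (41.2%), hepatocyte (40%), skeletal muscle (35.7%), neural and glial (23.5%), chondrocyte (18.2%) and adipocyte genes (16.7%). Erythroid genes were higher in 5 of 6 tested cases, with a summed level of 42.7 to 501 FPKM in the Chaserr Chd2 cross and 11.6 to 33.7 FPKM in the Chd2 cross. The adult beta globin row (Hbb-bs and Hbb-b1) had 43.7, 136 and 6.62 CPM and 0.689 to 4.08 CPM, so its level varied by over 10-fold among libraries of 1 cross. Osteoblast genes were higher in 5 of 9 cases, with a sum of 420 to 526 and 193 to 247 FPKM, among them Spp1, a matrix protein of bone (497 and 267 CPM), and the transcription factor Sp7 (6.1 and 2.01 CPM), while Mepe was at 0 in all libraries. Of 17 macrophage genes, 6 were higher and Laptm5 was lower (sum 505 to 567 and 369 to 526 FPKM), with the mannose receptor Mrc1 3.84-fold higher. With the correction, 11 macrophage genes were higher and 0 were lower.

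Of the other lists, mesothelial genes were lower in 4 of 6 cases (sum 11 to 19.9 and 24.7 to 28 FPKM), with the uroplakins Upk1b and Upk3b lower by 1.6 and 1.24 on the log2 scale. Of 14 epithelial genes, 5 were higher (8 without replicate 3 of the Chaserr Chd2 cross), among them the adhesion proteins Epcam and Cdh1, but the keratin Krt19 was 4.95-fold lower, and their sum was 55.9 to 95.7 and 107 to 138 FPKM. Endothelial genes were higher in 2 of 8 cases and lower in 3 (sum 22 to 27.3 and 28.3 to 33.3 FPKM), with Erg higher (log2 2.35) and Kdr lower (log2 -1.75). Of 6 pericyte genes, 3 were higher and 2 were lower, with the proteoglycan Cspg4 at log2 -1.62 and the potassium channel Kcnj8 at 1.79 (sum 39.1 to 40 and 46.7 to 57 FPKM). Skeletal muscle genes (1 of 14 higher, 4 lower), chondrocyte genes (2 of 11 higher), adipocyte genes (1 of 6 higher), neural and glial genes (1 of 17 higher, 3 lower) and hepatocyte genes (1 of 5 higher, 1 lower, Ttr at log2 -3.68) had sums that overlapped between the crosses, except for adipocyte genes (38.4 to 48.5 and 25.8 to 35.9 FPKM). None of the 4 lower skeletal muscle genes was called with the correction, and 2 were called lower without replicate 2 of the Chd2 cross or without replicate 1 or 2 of the Chaserr Chd2 cross. Lep and Cidec of adipocytes and Higd1b of pericytes were at 0 in all 6 libraries. The part of these cells in the differences above was not tested.

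Among the 12 WT libraries, each of the 2 crosses stood apart in part of the rows, and the Het and KO sets were not read in this way. Of the 2046 rows changed at least 2-fold, the 3 libraries of the Chaserr Chd2 cross lay outside the range of the 9 other WT libraries in 999 and those of the Chd2 cross in 628, including 172 in which both did, and neither did in 591. Over all tested rows these shares were 31.8% for the Chaserr Chd2 cross and 15.7% for the Chd2 cross. For interferon-stimulated genes few members stood apart, with 1 of 35 outside for the Chaserr Chd2 cross and 2 for the Chd2 cross. For contractile and TGF-beta genes the Chaserr Chd2 cross and the KO set were low and the Chd2 cross and the Het set were high. For ribosomal proteins the Chd2 cross stood apart in 39 of 79 genes and the Chaserr Chd2 cross in 26.

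**Figure D5:**
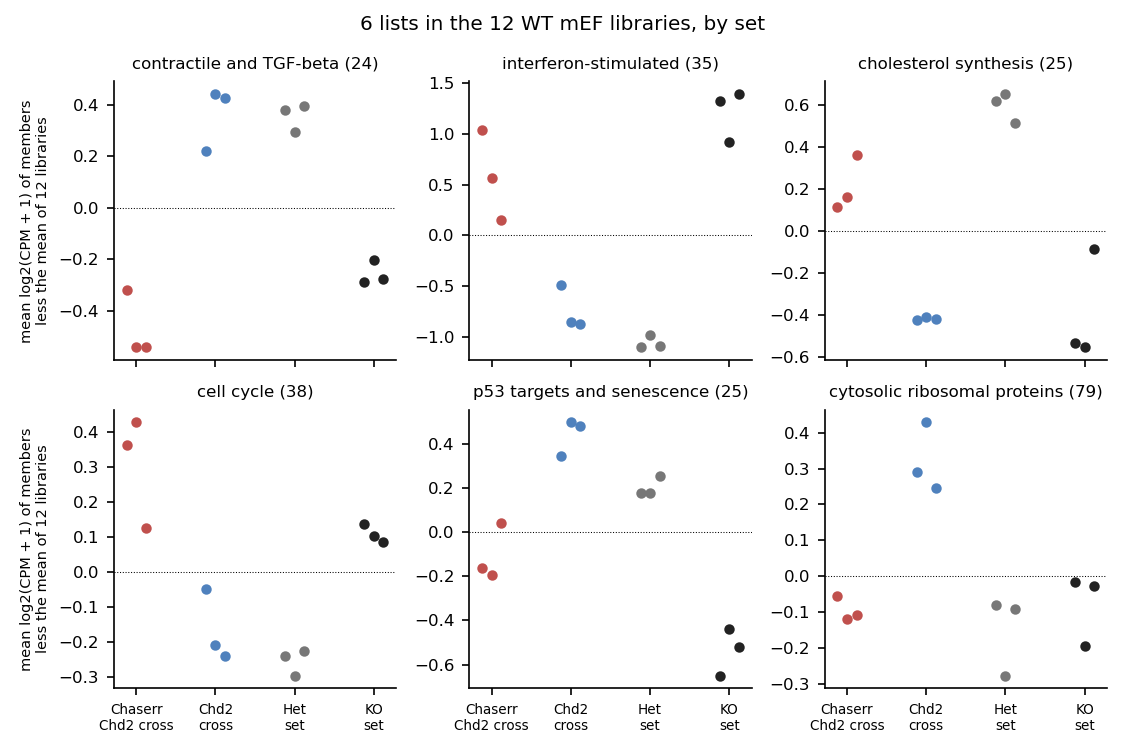
The mean of log2(CPM + 1) over the tested members of 6 lists in each of the 12 WT mEF libraries, less the mean of the 12 (y axis), by set (x axis), 1 point per library. For contractile genes the Chaserr Chd2 cross and the KO set lie below 0, for interferon-stimulated genes both lie above 0 but with 2 of 3 libraries of the Chaserr Chd2 cross below every KO library, and the Chd2 cross lies above all other sets for ribosomal proteins (0.24 to 0.43).

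The same sets differed in the same way when mutant libraries were compared, which share no library with the comparison above but were made beside it. Double mutant cells differed from Chd2 m/m cells in 6480 of 14724 rows (44%), 3236 (22%) higher and 3244 (22%) lower, by edgeR's quasi-likelihood test in a fit to all 11 libraries. These cells differ in Chaserr as well as in the set. Of the 7675 rows called in WT cells, 7521 (98%) had the same sign in mutants and 5524 were called with it, which is 72% of the rows called in WT and 87.1% of those called in mutants. The Spearman correlation of the log2 fold changes was 0.872 and Pearson's was 0.839, over 14020 rows that share sets of libraries, lengths and base composition.

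In 8 gene groups described above the direction was the same in mutants. The median log2 fold change in mutants was -0.79 for contractile and TGF-beta genes (same sign as in WT in 23 of 24), 0.76 for interferon-stimulated genes (32 of 35), 0.45 for cholesterol synthesis (22 of 25), 0.26 for the cell cycle (35 of 38), -0.27 for p53 targets (21 of 25), -0.54 for immediate early and ERK genes (28 of 30), -0.51 for ribosomal proteins (77 of 79) and -0.4 for oxidative phosphorylation (71 of 75). The median had the opposite sign to that in WT for 8 lists, matrix (-0.19), antigen presentation (-0.365), laminin (-0.22), Hox (0.11), skeletal muscle (0.26), neural and glial (0.14), endothelial (-0.06) and adipocyte genes (-0.03). Single genes moved likewise, Ccn2 by -1.3, Tagln by -1.89, Cdkn1a by -1.27, Lum by 2.06, Fos by 2.32, Igf1 by 1.49 and Idi1 by 1.23 on the log2 scale.

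The difference between the sets itself differed between mutant and WT cells in 5 rows (0.034%) by the interaction term of edgeR. It was negative for Chaserr alone (0.00679%) and positive in 4 rows (0.0272%), Chd2, Ccn2, Ptgs2 and a second copy of the Eno1b transcript. The mutants differ in Chaserr by genotype, and Chd2 is its neighbour.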

How the data were processed

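RNA-seq libraries of mEFs were analysed, made with a strand-specific Lexogen SENSE kit per the labels, and read as paired ends. For each of 24990 rows, the authors deposited the expected count and the FPKM that RSEM gave on a RefSeq annotation in which they had edited the end of Chaserr, and the values are not normalized between libraries. The genome build in the submitters' processing notes is mm9. Tool versions are not given in the sources used here.

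Expected counts were rounded, filtered (filterByExpr), scaled by TMM and tested in R 4.3.3 with edgeR 4.0.16 (quasi-likelihood test, Benjamini-Hochberg over all rows tested, adjusted p under 0.05). CPM values use TMM-scaled library sizes. Log2 fold changes are those of the fit, and SE is the fold change divided by the root of F. The 2 WT groups were fitted alone, and the 4 WT and mutant groups of both sets (11 libraries) for the mutant contrast and the interaction. The common biological coefficient of variation was 0.117. The GC and length correction subtracted from each library a lowess trend (span 0.3), with GC content known for 94.5% of tested rows. Levels in all 12 WT libraries were scaled together. Depth was 14185184 to 16102716 counts per library, which limits low rows. On simulated data of the WT comparison (13805 rows), 92% of 100 genes changed by 1.5 and 75% of 100 changed by 0.75 on the log2 scale were called. The other rows were left unchanged, and 12 of them were called. Unlike the real data, the simulation held few changed rows and no trend with GC content, so its rates may not apply to the comparison.

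The rule for named genes took Chd2, Chaserr and sex-linked genes, the 10 largest rises and 10 largest falls among called rows whose groups do not overlap and whose higher group averages 1 FPKM or more, the 6 most abundant called rows, and from each of 39 lists up to 4 called members with the lowest p (or, with none called, up to 2 of the highest level). Genes named as exceptions to the direction of a list can fall outside the rule and were chosen after their values were seen. The members and the lists were chosen with earlier results of these data known. Alternatives were DESeq2 1.42.0, its size factors, other filters on counts, rows of 1 symbol summed, the correction, the replicate block, the spread over 11 or 12 libraries, and leaving out each library. Opposite-strand overlap came from GENCODE vM1 and promoter windows from RefSeq. Eno1 and Muc16 of the lists were not matched to a row. Among called rows, 114 join several genes and 52 are transcript copies, whose reads are uncertain. Some genes of the lists count as members but their own values are not reported here.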

Additional observations from a re-analysis of the deposited data

Results flagged for a closer look

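The cross difference of 5 rows differed between mutant and WT cells by the interaction term of the 11-library fit (edgeR, Benjamini-Hochberg). For Chaserr the interaction was -9.03 on the log2 scale (adjusted p = 2.426e-08), with 1.88 in WT and -7.15 in mutants, of which only the double mutant lacks Chaserr. For Chd2 it was 1.22 (adjusted p = 0.001376), with 0.15 in WT and 1.38 in mutants. Ccn2 was lower in the Chaserr Chd2 set in both, by 2.25 in WT and 1.3 in mutants, with an interaction of 0.94 (adjusted p = 0.02554). Ptgs2 had -2.34 in WT and -1.13 in mutants, with an interaction of 1.2 (adjusted p = 0.02554). The copy of the Eno1b transcript had 1.35 in WT and 15.7 in mutants (interaction 14.4, adjusted p = 0.001376), and since the Chd2 m/m libraries hold no count of it and it shares its sequence with another row, its fold change is not a measured size. The interaction takes out a difference between the sets that is the same in WT and mutant cells. The genotypes of the mutants differ in Chaserr. For the rows other than Chaserr, this genotype and an effect of the m allele that differs between the sets cannot be told apart.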

How the results depend on the processing

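Among WT libraries, 7675 rows were called, and under the other tests, filters, scalings and spreads the count was between 6832 (replicate block with GC and length correction) and 8115 (spread over 12 WT libraries), with 7212 by DESeq2. Without each library in turn it was 6434 to 8027 (3188 to 4018 higher and 3246 to 4009 lower). Against replicate 3 of the Chd2 cross alone, chosen after seeing the data, it was 3911, 1891 higher and 2020 lower, with fewer samples by construction. The replicate numbers did not pair the samples (same-number correlations 0.045, -0.084 and 0.177), and the replicate block gave 7487 calls. In mutants (6480 called) the count was 3849 to 6805 without each library in turn, the lowest without Chd2 m/m replicate 1, which leaves that group with 1 library. For the interaction (5 called) it was 3 with at least 10 counts in every library, 48 by DESeq2, 7 with the replicate block and 3 to 33 without each library in turn, 33 without WT replicate 3 of the Chaserr Chd2 cross and 26 without double mutant replicate 3. The cause was not tested. No named gene turned its direction with a call under any alternative. With the correction 9 of them were no longer called, with the block 1, by DESeq2 2, and against replicate 3 alone 16. Against that library the counts of several lists were lower too, at 10 of 25 higher for cholesterol synthesis, 36 of 79 lower for ribosomal proteins, 33 of 75 lower for oxidative phosphorylation, 8 of 33 higher for imprinted genes, 5 of 18 higher for protocadherins, 4 of 46 higher for positional factors, and 1 of 6 higher for erythroid genes, whose beta globin call was lost. The rows at 0 in a group depend on 3 counts as a floor, and low rows are limited by depth.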
